A study of Mus musculus with 12 samples.

Results

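The Toll-like receptors of mouse bone marrow, with their co-receptor Cd14 and their adaptor Myd88, were followed across 4 treatment groups of mice with a Shp2-driven leukaemia. The set held 10 genes of the 56350 in the count table, taken by exact gene symbol: Tlr1, Tlr2, Tlr4, Tlr6, Tlr7, Tlr8, Tlr9, Tlr13, Cd14 and Myd88. All 10 passed the filter on low counts that left 17475 genes for testing. Gene expression was measured by RNA sequencing of total RNA from the bone marrow of 12 mice, 1 library for each mouse. Every mouse carried the activating allele Shp2E76K/+ with LysM-Cre+, in C57BL/6, and was 12 to 14 weeks old, with males and females used. The Cre recombinase is expressed from the Lyz2 locus, so the allele is switched on mainly in cells of the myeloid lineage. The strain models juvenile myelomonocytic leukaemia (JMML). No mouse without the allele was included, so each comparison is one between treatments of diseased mice. Of the 4 groups of 3 mice, the Combo group received both drugs, the PD-901 group the MEK inhibitor PD0325901, the 5-azacitidine group the hypomethylating cytidine analogue, and the Vehicle group no drug. PD-901 was given by mouth at 5 mg/kg in 20 doses over 4 weeks, and 5-azacitidine into the peritoneum at 5 mg/kg in 5 doses over the same time.

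Toll-like receptors are membrane proteins that recognise molecules of microbes. Tlr1, Tlr2, Tlr4 and Tlr6 act at the cell surface on bacterial lipopeptides and lipopolysaccharide, and Tlr7, Tlr8, Tlr9 and Tlr13 act in endosomes on nucleic acids. Cd14 hands lipopolysaccharide to Tlr4 and supports other receptors, and Myd88 links all of the receptors listed here to the Irak kinases, NF-kB and the interferon regulatory factors. In bone marrow these receptors are found mainly on monocytes, macrophages, neutrophils, dendritic cells and B cells, so their level in whole marrow moves with the number of such cells as well as with the RNA in each.

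In the mm10 build 9 of the genes lie on 5 chromosomes. Tlr1 (chr5:64924679-64933563) and Tlr6 (chr5:64952031-64960097) are neighbours on the minus strand. Tlr7 (chrX:167304929-167330558) and Tlr8 (chrX:167242696-167264329) are neighbours on the minus strand of the X chromosome, which also carries Tlr13 on the plus strand (chrX:106143204-106160493). Tlr9 (chr9:106222598-106226883, plus) and Myd88 (chr9:119335934-119341411, minus) share chromosome 9. Tlr2 lies at chr3:83836272-83841767 on the minus strand and Tlr4 at chr4:66827584-66930284 on the plus strand.

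RefSeq promoter windows of 300 bases (250 before and 50 after the start of the gene, GRCm38.p6) were matched for 7 of the 10 genes. Tlr4, Tlr7 and Cd14 had no window. The RefSeq start equals the 5′ end of the gene as listed above for Tlr8 and Tlr9, and lies downstream of it by 71 bases for Tlr13, 159 for Tlr2 and 1393 for Myd88, whose window is thus inside the gene as annotated in the count table. Windows are shown for the receptors of the set that differed between Combo and Vehicle marrow and for their adaptor Myd88, since one of the drugs acts on CG methylation. Capitals mark matches to 3 motifs of transcription factors, searched on both strands.
Tlr2 (chr3:83841559-83841858, minus strand): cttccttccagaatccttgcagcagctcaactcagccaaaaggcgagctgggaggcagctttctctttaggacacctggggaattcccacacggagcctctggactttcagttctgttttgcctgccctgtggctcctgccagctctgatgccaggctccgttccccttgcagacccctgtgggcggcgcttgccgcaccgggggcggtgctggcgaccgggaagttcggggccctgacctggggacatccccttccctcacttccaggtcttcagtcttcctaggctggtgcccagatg
Tlr8 (chrX:167264280-167264579, minus strand): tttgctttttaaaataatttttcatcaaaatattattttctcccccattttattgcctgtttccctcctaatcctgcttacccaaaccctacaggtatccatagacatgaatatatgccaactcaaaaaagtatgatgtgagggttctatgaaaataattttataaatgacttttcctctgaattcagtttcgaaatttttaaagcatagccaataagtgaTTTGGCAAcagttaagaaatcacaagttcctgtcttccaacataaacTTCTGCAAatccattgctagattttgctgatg
Tlr9 (chr9:106222348-106222647, plus strand): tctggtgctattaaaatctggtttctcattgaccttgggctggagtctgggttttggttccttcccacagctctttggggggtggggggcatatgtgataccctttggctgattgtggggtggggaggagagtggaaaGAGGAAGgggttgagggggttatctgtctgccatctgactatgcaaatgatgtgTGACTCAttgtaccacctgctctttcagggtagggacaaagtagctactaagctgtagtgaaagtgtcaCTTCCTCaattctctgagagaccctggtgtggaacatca
Tlr13 (chrX:106143025-106143324, plus strand): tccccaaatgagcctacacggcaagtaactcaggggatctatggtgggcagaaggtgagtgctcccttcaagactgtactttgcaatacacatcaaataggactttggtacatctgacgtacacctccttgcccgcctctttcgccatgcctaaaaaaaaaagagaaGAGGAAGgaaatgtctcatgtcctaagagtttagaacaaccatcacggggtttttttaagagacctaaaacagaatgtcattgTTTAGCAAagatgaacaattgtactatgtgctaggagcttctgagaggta
Myd88 (chr9:119339969-119340268, minus strand): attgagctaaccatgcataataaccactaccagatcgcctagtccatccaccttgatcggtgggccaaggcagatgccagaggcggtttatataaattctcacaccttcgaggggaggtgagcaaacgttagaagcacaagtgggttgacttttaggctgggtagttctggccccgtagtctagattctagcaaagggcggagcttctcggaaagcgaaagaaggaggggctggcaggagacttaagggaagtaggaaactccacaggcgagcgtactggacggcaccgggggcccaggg
The motifs searched were GAGGAAG for PU.1, TTGCNNAA for C/EBP and TGANTCA for AP-1. They occurred in 13.6%, 10.8% and 7.81% of the 32851 windows in the table, in that order. The Tlr9 window held a PU.1 match 112 bases before the start and another 11 bases after it, with an AP-1 match 58 bases before the start. The Tlr13 window held a PU.1 match 83 bases before the start and a C/EBP match at the start itself. The Tlr8 window held C/EBP matches 29 bases before and 18 bases after the start. The Tlr2 and Myd88 windows held no match to any of the 3 motifs. Tlr1 and Tlr6, which were not called, also had windows, not printed here. The first Tlr1 window held a PU.1 match 23 bases before its start, and the first Tlr6 window a C/EBP match 89 bases before its start. The second window of each held no match. The windows also differed in CG dinucleotides, the sites of DNA methylation. Tlr9 had 0, Tlr8 had 1, Tlr13 had 5, Tlr2 had 11 and Myd88 had 13, against a median of 7 over all windows. The windows not printed had 3 and 9 for Tlr1 and 5 and 7 for Tlr6. DNA methylation was not measured in this series, and a motif match describes letters and no binding.

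The 12 libraries held 15356919 to 27148190 counts (median 19657932.5), and each of the 10 genes had between 122 and 3185 counts in every library. Counting error was not compared with the spread between mice. Values below are CPM, counts divided by the TMM-scaled library size. The labels say that sex was matched, but Xist, the X-inactivation RNA of female cells, was above 100 CPM in 0 of 3 Combo, 2 of 3 PD-901, 1 of 3 5-azacitidine and 3 of 3 Vehicle libraries. Xist level and treatment therefore cannot be told apart in Combo against Vehicle, and 3 genes of the set are X-linked. Lyz2, the myeloid lysozyme gene whose locus drives the Cre, was at 44.9, 55.9 and 1151 CPM in Combo libraries and at 172, 147 and 3228 CPM in Vehicle libraries, against 699.6 to 4182 CPM in the 6 single-agent libraries. Reads from mitochondrial genes made up 1.75% to 1.81% of counts in Combo libraries and 1.01% to 1.73% in the others.

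Per kilobase of exon, Myd88 was the most abundant of the 10, at a mean of 41.6 CPM per kb over the 12 libraries. Tlr13, the receptor for bacterial ribosomal RNA in mice, followed at 22.8 CPM per kb, next to Tlr2 at 21.8 and Cd14 at 16.7 CPM per kb. The other receptors lay close together on this scale, with means of 6.46 for Tlr8, 5.95 for Tlr7, 5.20 for Tlr4, 5.13 for Tlr9, 4.86 for Tlr6 and 3.78 CPM per kb for Tlr1. The order of the group means differed between Combo and Vehicle marrow, and no test of order was made. Tlr2 averaged 13.7 ± 4.90 CPM per kb in Combo and 23.9 ± 1.93 CPM per kb in Vehicle marrow (SD, n = 3 each). Its mean was above those of Tlr13 and Cd14 in Combo marrow and below both in Vehicle marrow. In Combo marrow Tlr13 averaged 11.8 ± 3.87 and Cd14 8.51 ± 1.62 CPM per kb, against 27.6 ± 2.45 and 26.7 ± 2.08 CPM per kb in Vehicle marrow (SD, n = 3 each). Tlr9 had the lowest mean of the set in Combo marrow, at 2.698 ± 1.85 CPM per kb, whereas in Vehicle marrow its 9.09 ± 4.15 CPM per kb stood above Tlr4 at 5.08 ± 0.24. Over the 12 libraries the ranges of all neighbours in this order overlapped.

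**Figure D1:**
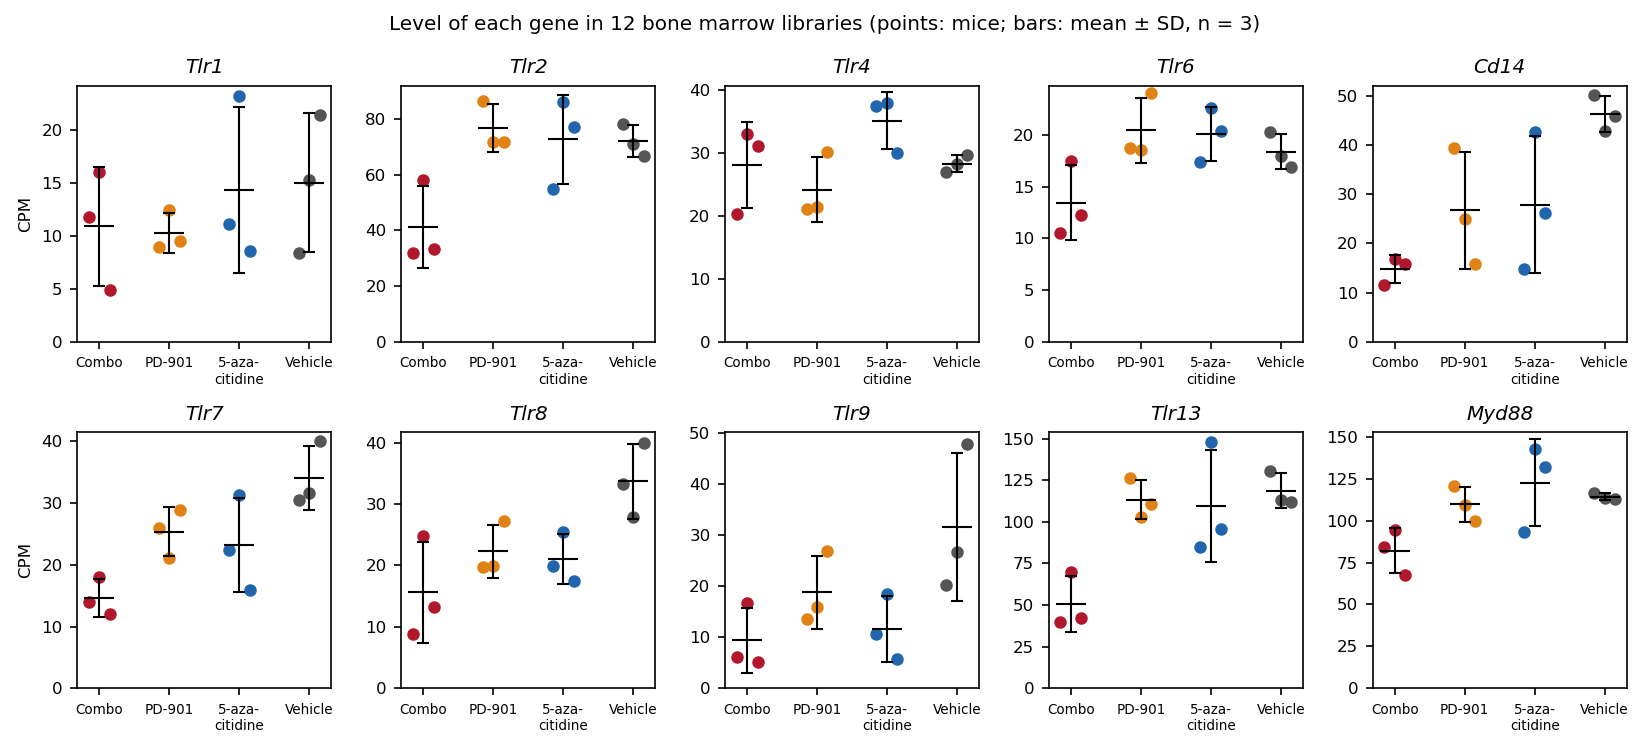
CPM (TMM-scaled, vertical axis) of the 10 genes in each of the 12 libraries, with points for single mice, a horizontal line at the mean, whiskers of 1 SD (n = 3) and groups ordered Combo, PD-901, 5-azacitidine and Vehicle. Combo points lie below all Vehicle points for Tlr2, Tlr7, Tlr8, Tlr9, Tlr13, Cd14 and Myd88, while those of Tlr4 spread around the Vehicle points.

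The first comparison asks what the combined treatment did relative to no drug. Combo marrow had less RNA for 6 of the 10 genes: the 4 endosomal receptors of this set (Tlr7, Tlr8, Tlr9 and Tlr13), the surface receptor Tlr2 and the co-receptor Cd14. None of the 10 was higher. Calls are adjusted p values under 0.05 by edgeR's quasi-likelihood test with Benjamini-Hochberg adjustment over all genes tested. In this comparison 7.97% of the 17475 genes tested were called lower and 5.78% higher, 13.8% in all. The median log2 change of the 10 genes was -0.96, against 0.01 over all genes tested. In 7 of the 10 the Combo and Vehicle libraries did not overlap, with Combo lower, a pattern seen in 15.9% of genes tested. Fewer cells of a type and less RNA per cell cannot be told apart in whole marrow.

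Tlr13 had 40.1, 69.9 and 42.1 CPM in Combo libraries, against 131, 113 and 112 CPM in Vehicle libraries. The Combo libraries lay below the Vehicle libraries with a wide gap. The log2 change was -1.23 (SE 0.22), a 2.34-fold lower level, with an edgeR adjusted p of 0.00427. Tlr7, a receptor for single-stranded RNA, had 13.9, 18.1 and 12.0 CPM in Combo libraries, against 30.5, 31.6 and 40.0 CPM in Vehicle libraries. Here too the groups were apart, with a log2 change of -1.22 (SE 0.24, edgeR adjusted p 0.00549). Tlr8, which lies beside Tlr7 and responds to RNA fragments in human cells, had 8.90, 24.7 and 13.2 CPM in Combo libraries, against 33.2, 27.9 and 40.0 CPM in Vehicle libraries. The second Combo library came close to the lowest Vehicle library without reaching it, and the log2 change was -1.11 (SE 0.30, edgeR adjusted p 0.0235).

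Tlr9, the receptor for DNA rich in unmethylated CG, had the steepest fitted change of the 10 and the widest spread. Its level was 6.21, 16.8 and 5.17 CPM in Combo libraries, against 20.2, 26.7 and 47.9 CPM in Vehicle libraries. The groups did not overlap, but the second Combo library and the first Vehicle library were close. The log2 change was -1.76 with a 95% interval of -2.85 to -0.67 (edgeR adjusted p 0.0353).

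Cd14 had 11.6, 16.8 and 15.9 CPM in Combo libraries, against 50.1, 42.9 and 46.0 CPM in Vehicle libraries. Both groups were tight and well apart, which gave a 3.14-fold lower level in Combo (log2 change -1.65, SE 0.35, edgeR adjusted p 0.00912). Tlr2, which senses bacterial lipopeptides in pairs with Tlr1 or Tlr6, had 32.0, 58.2 and 33.3 CPM in Combo libraries, against 78.3, 71.0 and 66.8 CPM in Vehicle libraries. The second Combo library was again the highest of its group, and the log2 change was -0.81 (SE 0.21, edgeR adjusted p 0.0224).

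Tlr4, the lipopolysaccharide receptor that Cd14 serves, had nearly equal means, 28.1 ± 6.82 CPM in Combo and 28.2 ± 1.33 CPM in Vehicle marrow (SD, n = 3 each). Single libraries were at 20.3, 33.0 and 31.0 CPM in Combo and at 26.9, 28.2 and 29.6 CPM in Vehicle, so the Combo libraries spanned the Vehicle range. The 95% interval of the log2 change ran from -0.43 to 0.41 (edgeR adjusted p 0.991). Myd88 had 84.1, 94.6 and 67.7 CPM in Combo libraries, against 117, 114 and 113 CPM in Vehicle libraries. The groups did not overlap, yet the log2 change of -0.48 (SE 0.16) missed the threshold with an edgeR adjusted p of 0.0626. Tlr6 averaged 13.4 ± 3.61 CPM in Combo and 18.4 ± 1.72 CPM in Vehicle (log2 change -0.45, edgeR adjusted p 0.176), and Tlr1 averaged 10.9 ± 5.59 CPM in Combo and 15.04 ± 6.56 CPM in Vehicle (log2 change -0.47, edgeR adjusted p 0.559; SD, n = 3 each). Libraries of the groups overlapped for both genes. Tlr1 and Tlr6 share 13.6% and 12.3% of their 50-base words with each other, so reads of one could have been lost or assigned to the other, and 7.42% of the Myd88 words are shared with the antisense gene Acaa1a, which overlaps 290 of its exon bases, and whether counting used strand is not given in the sources.

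Some of the calls depended on single mice. Tlr7 and Tlr13 were called without each of the 12 libraries in turn. Cd14 was called in 11 of 12 such fits, and missed the threshold without Combo replicate 1 (edgeR adjusted p 0.063). Tlr2 and Tlr8 were each called in 8 of 12, and Tlr9 in 5 of 12, with its log2 change between -2.48 and -1.33. The number of genes called was 2 without Combo replicate 1, 3 without Combo replicate 3 and 3 without Vehicle replicate 1. Calls over all genes in these fits numbered 803, 1039 and 1006, in place of 2403. With Xist as a covariate Tlr13 alone of the 10 was called (log2 change -1.12, edgeR adjusted p 0.0414), and calls over all genes numbered 914 in place of 2403. The log2 changes of the 5 genes no longer called were -0.84 for Tlr2, -1.02 for Tlr7, -0.98 for Tlr8, -1.20 for Tlr9 and -1.62 for Cd14 in that fit. With Lyz2 as a covariate 4 genes were called, Tlr2, Tlr7, Tlr13 and Cd14, among 1800 of all genes. Without the 4 libraries lowest in Lyz2, which leaves 1 Combo and 1 Vehicle library whose spread is assumed to be that of the other groups, Tlr7, Tlr8 and Tlr13 were called, among 670 of all genes. Tlr13 was the one gene called with Xist and also with Lyz2 as a covariate. Xist was above 100 CPM in 0 of 3 Combo and 3 of 3 Vehicle libraries, and Tlr13 is X-linked. The Xist fit therefore cannot separate Xist level from treatment in this comparison.

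**Figure D2:**
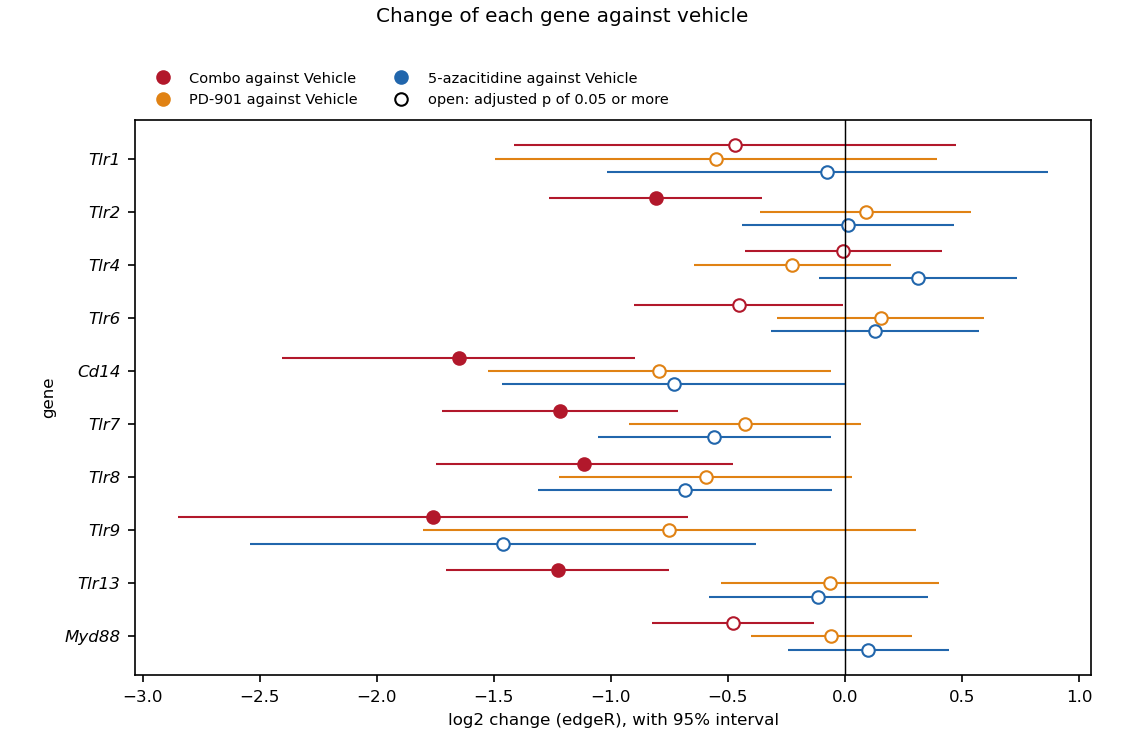
Log2 change against Vehicle (horizontal axis) of each of the 10 genes in Combo, PD-901 and 5-azacitidine marrow, with points at the edgeR estimate and lines for the 95% interval. Combo intervals lie below 0 for 8 genes, of which the 6 called run from -0.81 (Tlr2) to -1.76 (Tlr9), and the Tlr4 estimate is at -0.01.

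The single agents were each set against Vehicle, with the same 3 Vehicle libraries in all comparisons. No gene of the 10 was called with PD-901, where edgeR called 0% of the 17475 genes tested, DESeq2 called 0 of the 10 (9 over all genes), and 1 of the 10 had an unadjusted edgeR p under 0.05 (4.88% of genes tested). That gene was Cd14, at 39.4, 24.9 and 15.9 CPM in PD-901 libraries, against 50.1, 42.9 and 46.0 CPM in Vehicle libraries. The PD-901 values were scattered but all lower, with a log2 change of -0.79 (95% interval -1.52 to -0.06, edgeR adjusted p 0.96). Tlr7 and Tlr8 were also lower without overlap, at 21.0 to 28.9 and 19.8 to 27.3 CPM in PD-901 libraries, against 30.5 to 40.0 and 27.9 to 40.0 CPM in Vehicle libraries. A separation of this kind, with PD-901 lower, was seen in 3 of the 10 genes and in 5.93% of genes tested.

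With 5-azacitidine no gene of the 10 was called either, where edgeR called 0.00572% of genes tested (1 gene), and 3 of the 10 had an unadjusted p under 0.05 (15.3% of genes tested). These were Tlr7, Tlr8 and Tlr9. Tlr9 had 10.6, 18.4 and 5.65 CPM in 5-azacitidine libraries, against 20.2, 26.7 and 47.9 CPM in Vehicle libraries. All 3 treated libraries were below the Vehicle range, and the log2 change of -1.46 (95% interval -2.54 to -0.38) had an edgeR adjusted p of 0.21. DESeq2 called Tlr9 at the same contrast (log2 change -1.47, adjusted p 0.0436) and no other gene of the 10. Tlr8, at 17.6 to 25.5 CPM in 5-azacitidine libraries against 27.9 to 40.0 CPM in Vehicle libraries, and Cd14, at 14.9 to 42.7 CPM against 42.9 to 50.1 CPM, were also lower without overlap, so that 3 of the 10 genes were, against 9.77% of genes tested. Tlr4 stood the other way, at 30.0 to 37.9 CPM in 5-azacitidine libraries against 26.9 to 29.6 CPM in Vehicle libraries, with a log2 change of 0.31 (95% interval -0.11 to 0.73, edgeR adjusted p 0.471). Separation with 5-azacitidine higher was seen in 10.8% of genes tested.

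Tlr2, Tlr13 and Myd88 were near their Vehicle level with either single agent. For Tlr13 the log2 change was -0.07 with PD-901 (95% interval -0.53 to 0.40) and -0.11 with 5-azacitidine (95% interval -0.58 to 0.35). For Tlr2 it was 0.09 with PD-901 (95% interval -0.36 to 0.54) and 0.01 with 5-azacitidine (95% interval -0.44 to 0.47). For Myd88 it was -0.06 with PD-901 and 0.10 with 5-azacitidine. These intervals include no difference and also changes of modest size in either direction.

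The combination was next set against each drug alone. Relative to PD-901, Combo marrow was lower in 2 of the 10 genes, where 5.12% of genes tested were called lower. Tlr13 was at 40.1, 69.9 and 42.1 CPM in Combo libraries, against 126, 103 and 110 CPM in PD-901 libraries (log2 change -1.16, SE 0.22, edgeR adjusted p 0.00709). Tlr2 was at 32.0, 58.2 and 33.3 CPM in Combo libraries, against 86.6, 71.6 and 71.8 CPM in PD-901 libraries (log2 change -0.90, SE 0.21, edgeR adjusted p 0.0212). Neither gene had overlapping libraries. Including these, 5 of the 10 genes were lower without overlap (15% of genes tested), the others being Tlr6, Tlr7 and Myd88. The call of Tlr2 was lost without PD-901 replicate 1, Combo replicate 1 or Combo replicate 3 (edgeR adjusted p up to 0.105), which left 1 gene called, and 5 were called without Combo replicate 2. Over all genes these fits called 421, 386, 482 and 1563, in that order, in place of 1191. With Lyz2 as a covariate neither Tlr13 nor Tlr2 was called, although the log2 changes were as large, at -1.26 for Tlr13 (edgeR adjusted p 0.0657) and -1.07 for Tlr2 (edgeR adjusted p 0.0858). That fit called 156 of all genes in place of 1191.

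Relative to 5-azacitidine, Combo marrow was lower in Tlr13 alone of the 10, where 1.07% of genes tested were called lower. Tlr13 was at 40.1, 69.9 and 42.1 CPM in Combo libraries, against 85.1, 148 and 95.9 CPM in 5-azacitidine libraries. The groups did not overlap, as in 9.54% of genes tested, and the log2 change was -1.11 (SE 0.22, edgeR adjusted p 0.0326). This call was lost without Vehicle replicate 2, 5-azacitidine replicate 2 or 3, or Combo replicate 1 or 3 (edgeR adjusted p up to 0.147). In those fits 76, 1, 0, 2 and 11 of all genes were called, in that order, in place of 231. Tlr9 was close in the pair, at 9.38 ± 6.42 CPM in Combo and 11.5 ± 6.45 CPM in 5-azacitidine marrow (SD, n = 3 each), with a 95% interval of the log2 change from -1.38 to 0.79.

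The interaction term asks whether the combination departs from the sum of the single-agent changes on the log scale. It was called by edgeR for 0 of the 10 genes and for 0% of genes tested. DESeq2 and limma-voom called 0 of the 10, and 285 and 0 over all genes. An unadjusted p under 0.05 was found for 4 of the 10, against 10.7% of genes tested. They were Tlr13 at -1.05 (p 0.00416, edgeR adjusted p 0.233), Tlr2 at -0.91 (p 0.00835, edgeR adjusted p 0.276), Tlr6 at -0.73 and Myd88 at -0.52 on the log2 scale. Without the low-count filter Tlr13 and Tlr2 passed with edgeR adjusted p values of 0.00133 and 0.0188, in a fit that called 400 genes in all. The fit without the filter called more genes in other comparisons too. Against Vehicle it called 53 with PD-901 and 572 with 5-azacitidine, in place of 0 and 1. Tlr9 and Cd14 had interaction terms of 0.45 and -0.13, with 95% intervals of -1.06 to 1.96 and -1.17 to 0.91. A joint edgeR test for any difference among the 4 groups called 4 of the 10 genes, against 6.96% of genes tested: Tlr13 (adjusted p 0.0148), Tlr7 (adjusted p 0.0296), Cd14 (adjusted p 0.0467) and Tlr2 (adjusted p 0.0477).

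The count of each other gene was also divided by that of Tlr4 in the same library, which needs no scaling between libraries. Tlr4 was taken knowing that it differed little between Combo and Vehicle marrow, so lower ratios of the lower genes follow from that choice and are a description. For Cd14 the ratio was 0.51 to 0.569 in Combo libraries, against 1.52 to 1.86 in Vehicle libraries. For Tlr13 it was 1.36 to 2.12 in Combo libraries, against 3.78 to 4.85 in Vehicle libraries. For Tlr9 it was 0.167 to 0.509 in Combo libraries, against 0.751 to 1.62 in Vehicle libraries. In 7 of the 9 genes (Tlr2, Tlr6, Tlr7, Tlr8, Tlr9, Tlr13 and Cd14) the ratios did not overlap and were lower in Combo, as were those of 11.4% of genes tested. The exact two-sided permutation p of each was 0.1 (0.129 after Benjamini-Hochberg adjustment over the 9), the smallest that 3 against 3 libraries allow, so the test could not pass. Ratios overlapped for Tlr1 (exact permutation p 0.6) and Myd88 (exact permutation p 0.3).

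**Figure D3:**
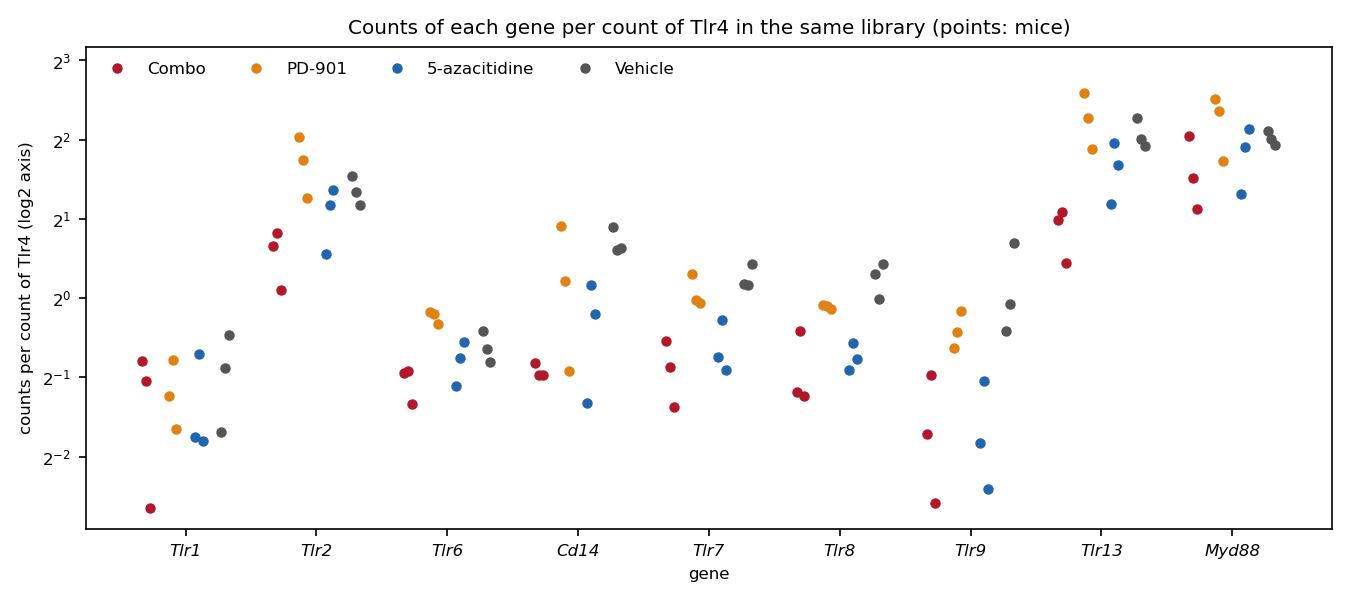
Ratio of each gene's count to the Tlr4 count in the same library (vertical axis, log scale), with 1 point for each mouse and, within each gene, groups ordered Combo, PD-901, 5-azacitidine and Vehicle. Combo points lie below Vehicle points for 7 of the 9 genes, with Cd14 at 0.51 to 0.569 in Combo and 1.52 to 1.86 in Vehicle libraries.

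Other genes of Toll-like receptor signalling were counted from lists of 80 genes, of which 79 were tested (Cxcl1 had at most 6 counts in a library). In Combo against Vehicle 24 of the 79 were lower (7.97% of all genes tested), none was higher (5.78%) and 55 were not called, with a median log2 change of -0.47. The median over all genes tested was 0.01. No gene of these lists was called by edgeR against Vehicle with PD-901, where 7 had an unadjusted p under 0.05 (4.88% of all genes tested), or with 5-azacitidine, where 20 did (15.3%). Relative to PD-901 alone, Combo marrow was lower in 17 of the 79 (5.12% of all genes tested), and relative to 5-azacitidine alone in 3 (1.07%), namely Nfkbia, Nfkbie and Il1rap. In place of 24, the number of lower genes was 8 with Xist and 16 with Lyz2 as a covariate, 9 without Combo replicate 1 and 13 without Combo replicate 3. It was 36 with DESeq2. Over all genes, those called lower in these fits numbered 626, 1121, 518, 658 and 1942, in that order, in place of 1393.

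Among the remaining Toll-like receptors, the flagellin receptor Tlr5 was lower, at 4.31 CPM in Combo against 13.9 CPM in Vehicle marrow (log2 change -1.69, edgeR adjusted p 0.0125). Tlr3, Tlr11 and Tlr12 had log2 changes of -1.17, -1.16 and -0.85 and did not pass. Of the co-receptors, Cd180 (log2 change -1.17, edgeR adjusted p 0.0153) and its partner Ly86 (log2 change -1.05, edgeR adjusted p 0.0207), which form a complex related to Tlr4 and its partner Ly96, were lower. Ly96 itself had a log2 change of -0.79, Lbp, which binds lipopolysaccharide, 0.24, and the scavenger receptor Cd36 0.04, none of them called. Unc93b1, the chaperone that carries the endosomal receptors from the endoplasmic reticulum, averaged 260 CPM in Combo and 539 CPM in Vehicle marrow. Its log2 change was -1.05 with an edgeR adjusted p of 0.00457. The folding factors Cnpy3 (log2 change -0.47, edgeR adjusted p 0.0528) and Hsp90b1 (log2 change 0.09) did not pass. Of 5 endosomal proteases, which cut these receptors into their active form, Lgmn (log2 change -1.53) and Ctss (log2 change -1.32) were lower and Ctsl and Ctsb had log2 changes of -0.44 and -0.40 without a call.

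Downstream of the receptors, calls are given list by list, and no difference between lists was tested. Of 5 adaptors, Pik3ap1 was lower (log2 change -1.07, edgeR adjusted p 0.0033), while Tirap, Ticam2 and Ticam1 had log2 changes of -0.47, -0.40 and -0.20 without a call. Of 17 kinases and ubiquitin ligases none passed in edgeR, against 7.97% of all genes called lower, and 7 had an unadjusted p under 0.05, against 27.5% of all genes. Irak2 (log2 change -0.45, edgeR adjusted p 0.052) and Irak4 (log2 change -0.59, edgeR adjusted p 0.0569), kinases recruited by Myd88, were nearest to the threshold. Of 8 transcription factors 5 were lower. Irf7, which drives interferon genes after Tlr7 and Tlr9 signalling, was at 32.1 CPM in Combo against 127 CPM in Vehicle marrow (log2 change -1.98, edgeR adjusted p 0.00454). Irf5, Relb and Nfkb2 had log2 changes of -1.17, -1.05 and -0.89, and Nfkb1 of -0.44.

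Inhibitors of the pathway were lower in 6 of 11, where 7.97% of all genes tested were called lower. The calls were led by Nfkbie (log2 change -1.39, edgeR adjusted p 0.00225) and Tnfaip3 (log2 change -1.03, edgeR adjusted p 0.00301), with Dusp1 at -1.60 and Irak3 at -0.67. Nfkbie retains NF-kB in the cytoplasm, Tnfaip3 removes ubiquitin chains and Irak3 blocks the Irak kinases, and all are themselves induced by the pathway. Of 17 target genes tested 5 were lower. Nlrp3, the inflammasome sensor, was at 19.9 CPM in Combo against 76.0 CPM in Vehicle marrow (log2 change -1.93, edgeR adjusted p 0.0033). Nfkbiz, Tnf and the chemokine Ccl3 had log2 changes of -1.44, -1.30 and -1.92. Of 5 IL-1 family receptors that also signal through Myd88, Il18rap was lower (log2 change -0.75, edgeR adjusted p 0.0337), although its Combo and Vehicle libraries overlapped.

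**Figure D4:**
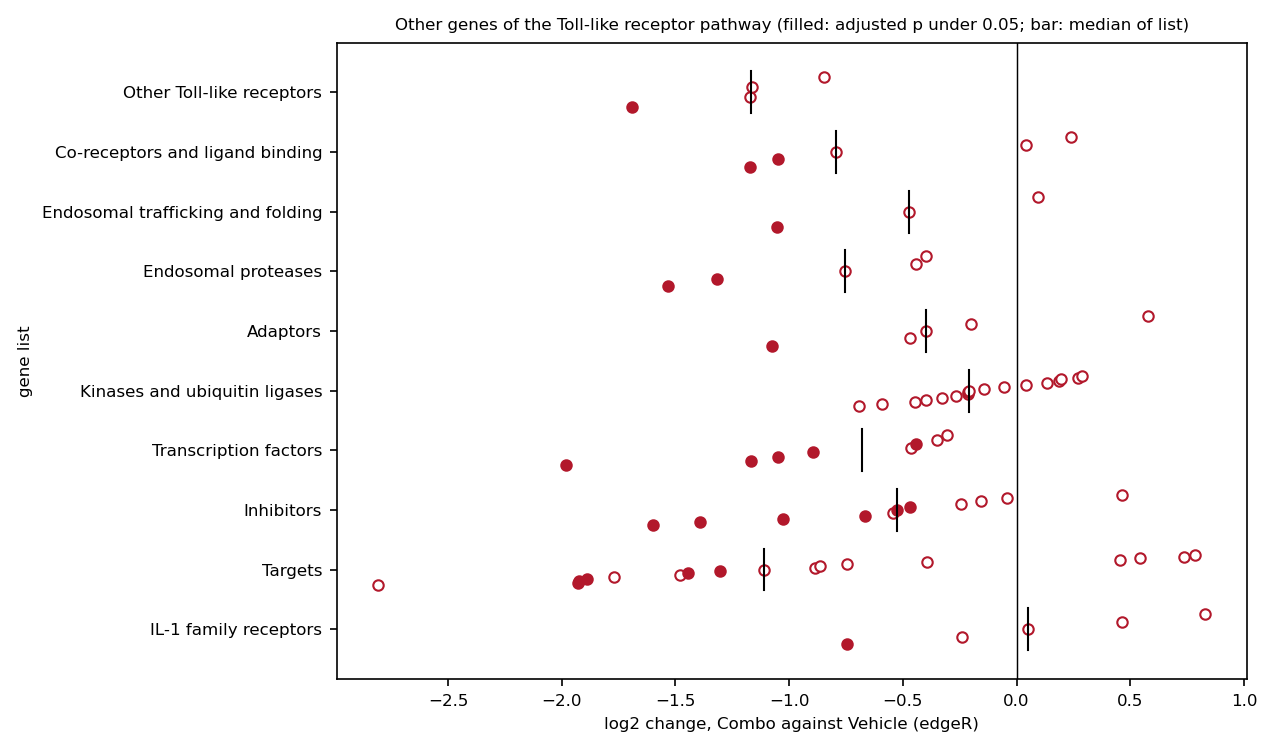
Log2 change of Combo against Vehicle (horizontal axis) for the tested genes of each pathway list (rows), with filled points for genes called by edgeR, open points for those not called and a bar at the median of each list. Of 79 tested pathway genes 24 are called, all to the left of 0, and none of the 17 kinases and ubiquitin ligases is.

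Markers of the cell types that carry these receptors moved in the same comparison. Combo marrow was lower than Vehicle marrow in 6 of 10 monocyte markers, 5 of 10 macrophage markers, 7 of 12 neutrophil markers, 5 of 6 markers of plasmacytoid dendritic cells, 4 of 6 of conventional dendritic cells and 6 of 7 of the B lineage. Over all genes tested 7.97% were called lower and 5.78% higher. The summed level of the monocyte markers was 1828 to 3425 CPM in Combo libraries, against 3890 to 4863 CPM in Vehicle libraries. For plasmacytoid dendritic cells, which in mice are rich in Tlr7 and Tlr9, the sum was 72.2 to 139 CPM in Combo libraries, against 213 to 320 CPM in Vehicle libraries. For macrophages it was 303 to 437 CPM in Combo libraries, against 503 to 1269 CPM in Vehicle libraries. For neutrophils it was 25523 to 30096.5 CPM in Combo libraries, against 31793 to 65374 CPM in Vehicle libraries, and for the B lineage 79.7 to 184 CPM against 319 to 331 CPM. All of these sums were below the Vehicle range, and no marker was at 0 in any library. The neutrophil list includes the secondary granule genes Ngp, Ltf and Camp, so its sum covers more than mature cells. Combo and Vehicle libraries overlapped for each of these genes, as for Ngp at 8738 to 9868 CPM in Combo and 8779 to 18798 CPM in Vehicle libraries. Markers that rose in Combo marrow were 5 of 6 of promyelocytes and 8 of 8 of erythroid cells, whose sum was 1879 to 5985 CPM in Combo libraries, against 1084 to 1706 CPM in Vehicle libraries. Of the others, 0 of 5 T cell, 1 of 4 NK cell and 3 of 4 basophil and mast cell markers were lower. In the single-agent groups the monocyte sum was also below the Vehicle range, at 2592 to 3203 CPM with PD-901 and 2277 to 3095 CPM with 5-azacitidine. The sum for plasmacytoid dendritic cells was below that range with 5-azacitidine, at 100 to 153 CPM, and overlapped it with PD-901, at 191 to 280 CPM. Other sums did not go that way. The B lineage sum was above the Vehicle range with PD-901, at 435 to 549 CPM, and the macrophage and neutrophil sums overlapped Vehicle with both single agents. The part of these markers in the changes of the receptors was not tested.

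**Figure D5:**
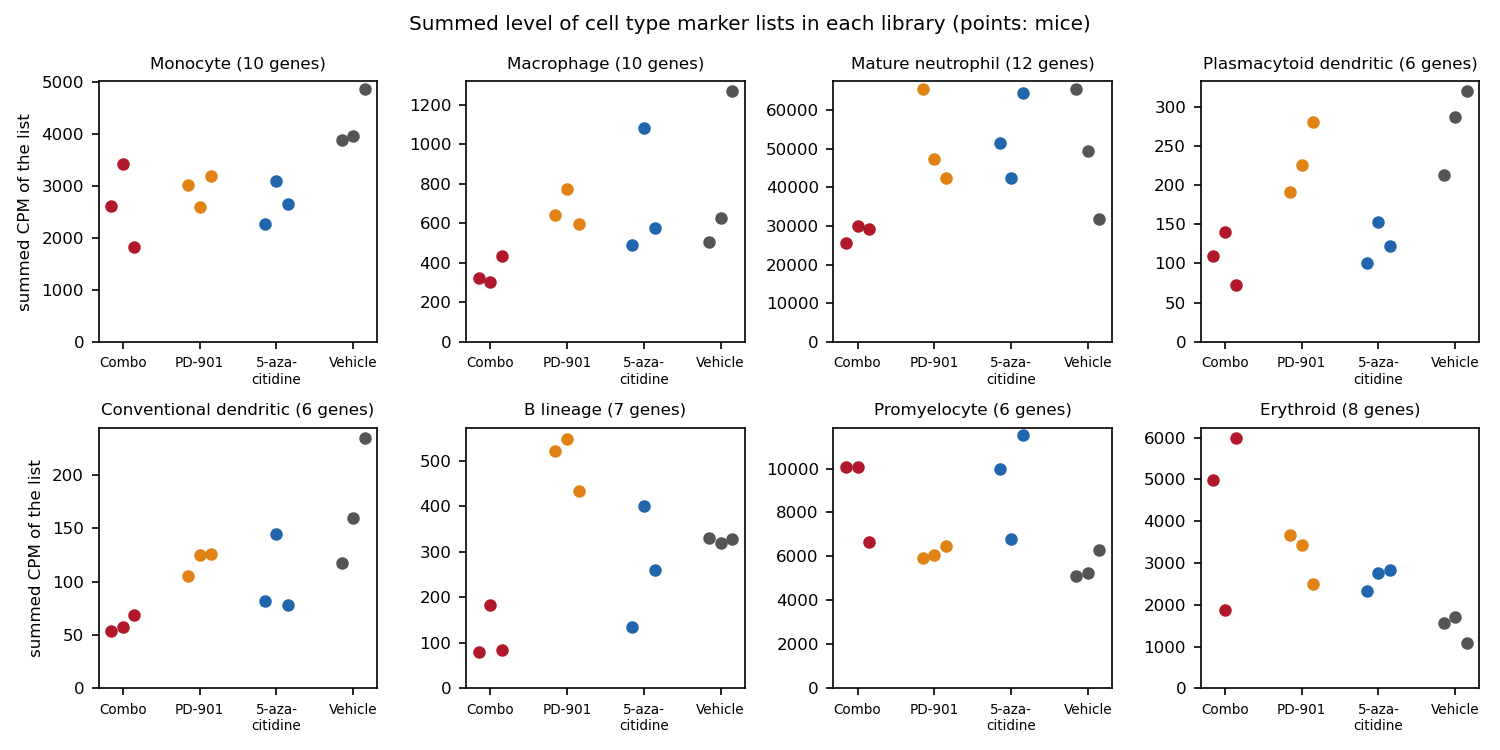
Summed CPM (vertical axis, from 0) of 8 cell type marker lists in the 12 libraries, 1 point for each mouse, with groups ordered Combo, PD-901, 5-azacitidine and Vehicle. Monocyte sums are 1828 to 3425 CPM in Combo and 3890 to 4863 CPM in Vehicle libraries, and erythroid sums stand the other way round.

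The 6 single-agent libraries include 3 with low and 3 with high Xist. Those with low Xist can be set beside Combo and those with high Xist beside Vehicle. Combo and Vehicle themselves cannot be compared at a like Xist level. Xist was high in 2 of 3 PD-901 and 1 of 3 5-azacitidine libraries, so the drug differs between the sets as well. Against the 3 single-agent libraries with low Xist, the Combo libraries were lower without overlap for Tlr13 alone of the 10, at 40.1 to 69.9 CPM in Combo libraries against 85.1 to 126 CPM. The other 9 genes overlapped there, and 10.1% of genes tested were lower without overlap, so 1 of 10 is near the background. Against Vehicle, whose libraries all had high Xist, the 3 single-agent libraries with high Xist were lower without overlap for Tlr8, at 19.9 to 27.3 CPM against 27.9 to 40.0 CPM in Vehicle libraries. They were also lower for Cd14, at 15.9 to 42.7 CPM against 42.9 to 50.1 CPM in Vehicle libraries. Such a separation was seen in 2 of the 10 genes and in 6.33% of genes tested. These sets mix both single agents and are given as values with no test.

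Genes whose log2 CPM followed each receptor most closely were taken as the top 3 by Pearson's r over the 12 libraries among 13435 genes. The libraries share depth, cell makeup and treatment, so r is a description. Tlr13 ran closest to Lyn, a Src family kinase of myeloid and B cells (r 0.98), then Pirb and Cfp (r 0.973 each). Tlr7 ran closest to Slfn5 (r 0.975), Laptm5 and Rarg. Tlr2 ran closest to Csrnp1 and Slc7a11 (r 0.97 each) and the actin gene Actg1. Tlr9 ran closest to Parp14 (r 0.971), the monocyte factor Klf4 and Pou2f2, and Tlr8 to Atp13a2 (r 0.957), Rap1gds1 and Ncoa3. Cd14 ran closest to Mylip (r 0.939), Tspan17 and Map6, Myd88 to Cytip (r 0.956), Evi2a and Rap1b, and Tlr6 to Ccser2 (r 0.924), Plod1 and Kcnj2. Tlr1 had Inpp4b (r 0.93), Cd48 and Tmem173, and Tlr4 had Rspry1 (r 0.904), Simc1 and Spred2. No gene named here for one of the 10 was named for another.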

How the data were processed

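Total RNA of bone marrow with an integrity number above 7 was sequenced in read pairs on a HiSeq4000, per the labels. The table the authors deposited gives raw counts of reads for each gene in 12 mice, not normalized. Bcl2fastq, STAR 2.7.2a, featureCounts, Subread 1.6.5 and build mm10 are named in the submitters' processing notes, and annotation and strand setting are not given in the sources. GENCODE M21 held 55180 of the 56350 identifiers, and their starts and ends were identical.

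Counts were analysed with edgeR 4.0.16 in R 4.3.3: filterByExpr (minimum count 10, minimum total 15; 17475 genes), TMM factors (0.929 to 1.07) and a quasi-likelihood fit of 1 mean per group over all 12 libraries (8 residual degrees of freedom, two-sided tests, common biological coefficient of variation 0.328). Benjamini-Hochberg adjustment ran over all genes tested, and standard errors are those implied by the F statistic. Replicates were no copies of each other: the chi-square of each pair, divided by its degrees of freedom, was 18.1 to 61.4. On counts simulated for Combo against Vehicle (16660 genes) the test recovered 66% of 100 genes changed 2-fold and 97% of 100 changed 4-fold, and 7 of 170 calls fell on unchanged genes. Only these genes were changed, all downward in Combo, and each gene was drawn independently, with no Xist or Lyz2 differences between mice. The real comparison had 2403 calls in both directions, so these rates need not hold for it. Alternatives were DESeq2 size factors, no low-count filter, fits of only the groups compared, Xist or Lyz2 as a covariate, leaving out libraries, limma-voom (limma 3.58.1) and DESeq2 1.42.0.

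The genes of the set, the pathway and marker lists and the tests were chosen with earlier results of these data known. From each list up to 4 genes with the lowest p in Combo against Vehicle were named, with every gene of the lists of other Toll-like receptors, co-receptors and trafficking factors; Nfkb1, Nfkbia, Il1rap, Cxcl1 and Acaa1a were named outside that rule, after their values were seen. Promoter sequences are RefSeq's (GRCm38.p6). The design listed 5 promoter motifs; those for NF-kB and the interferon response element were dropped afterwards, for a reason unrelated to their matches, and are not reported here.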

Additional observations from a re-analysis of the deposited data

How the results depend on the processing

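No paired analysis was possible because the labels carry no replicate numbers that would pair mice across groups. In Combo against Vehicle, where 6 of the 10 genes were called, 1 was called with Xist as a covariate and 2 to 8 with single libraries left out. Calls over all genes were 914 with Xist and 803 to 2730 with single libraries left out, in place of 2403. In 5-azacitidine against Vehicle 0 were called, 1 without the low-count filter (Cd14) and 1 with DESeq2 (Tlr9), while calls over all genes numbered 572 and 583 in place of 1. In Combo against PD-901 the count of 2 became 4 without the filter, 4 with DESeq2, 0 with Lyz2 as a covariate (over all genes 1756, 2186 and 156 in place of 1191) and 1 to 5 with single libraries left out (386 to 1563 over all genes). In Combo against 5-azacitidine the count of 1 became 4 without the filter, 3 with DESeq2, 0 with Lyz2 as a covariate or with only the groups compared (over all genes 986, 1057, 0 and 4 in place of 231), and 0 to 5 with single libraries left out (0 to 735 over all genes). The interaction gave 2 genes without the filter (400 over all genes, in place of 0). The joint test, with 4 genes called, gave 0 with Xist and 1 with Lyz2 as a covariate, 7 with DESeq2 (over all genes 366, 521 and 2942 in place of 1217) and 0 to 5 with single libraries left out (4 to 1674 over all genes). For PD-901 against Vehicle the count was 0 in all fits. The causes of these shifts were not tested.

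Of the log2 changes of single genes under alternatives, 972 kept the direction and the side of the threshold, 39 lost a call, 33 gained one and 32 changed direction, none of them called. Against Vehicle, Combo log2 changes of the other sign were 0.074 for Tlr1 with Xist as a covariate and, for Tlr4, 0.14 with Xist, 0.064 with Lyz2 and 0.067 without the 4 libraries. With PD-901 they were 0.023 for Myd88 with Lyz2 and 0.028 for Tlr13 without the 4 libraries. With 5-azacitidine they were 0.29 for Tlr1 and -0.015 for Tlr2 with Xist, and for Tlr2 -0.0049 with only the groups compared and -0.001 with limma-voom. For Tlr1 in Combo against PD-901 they were -0.069 with Lyz2, -1.07 without the 4 libraries and -0.10 with limma-voom. Leaving out single libraries gave ranges across 0 for Tlr4 in Combo against Vehicle (-0.14 to 0.18). With PD-901 against Vehicle the ranges were -0.14 to 0.012 for Tlr13, 0 to 0.16 for Tlr2 and -0.12 to 0.0084 for Myd88. With 5-azacitidine against Vehicle they were -0.61 to 0.27 for Tlr1, -0.12 to 0.18 for Tlr2, -0.39 to 0.042 for Tlr13 and -0.014 to 0.27 for Myd88. For Tlr1 the range was -0.31 to 0.43 in Combo against PD-901 and -0.79 to 0.15 in Combo against 5-azacitidine, and for Tlr9 in the last comparison it was -1.02 to 0.22. The lowest count of the 10 genes in a library was 122, and each group held 3 mice.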
